A study of Mus musculus with 17 samples.

Results

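The acute phase genes Saa1, Saa2, Saa3, Lcn2, Hp, Orm1 and Steap4 were followed across 17 RNA sequencing libraries of mouse pancreatic stellate cells. These 7 genes, of 35896 gene IDs in the deposited data, were selected on measured values in the same libraries, for opposite changes under tumour conditioned medium and under TGF-beta, and 6 of them passed the filter on low counts. Stellate cells are pancreatic mesenchymal cells that give rise to fibroblasts. Wild-type C57BL/6J cells of the lines PSC4 and PSC5 were kept for 4 days in Matrigel, a basement membrane gel, under 4 media. The 5 control libraries came from cells in control medium, 3 of PSC4 (passages 23, 24 and 25) and 2 of PSC5 (passages 27 and 28). The 4 TGF-beta libraries came from cells given 20 ng/mL TGF-beta, a cytokine that turns stellate cells into matrix-producing myofibroblasts (PSC4 passages 24 and 25, PSC5 passages 27 and 28). The 4 libraries called CM came from cells in medium conditioned by pancreatic tumour organoids, and the 4 CM+neratinib libraries from cells in such medium with neratinib, which blocks ERBB receptor kinases, at 300 nM (PSC4 passages 23 and 24, PSC5 passages 27 and 28 in each group). Replicates are named below by cell line and number, and within a line the same number stands for the same passage. Each line is a passaged culture, so p-values measure the spread between passages and lines in culture and not between animals.

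Acute phase proteins are secreted or membrane proteins whose output rises in inflammation, classically in the liver, where IL-6 acts through STAT3 and IL-1 and TNF act through NF-kappaB, with C/EBP factors acting at many of the same promoters. Some are also made outside the liver by fibroblasts, epithelium and macrophages, and Saa3 is the mouse serum amyloid A best known for this. In pancreatic tumours such genes are used as marks of inflammatory fibroblasts, which are commonly set against the myofibroblasts that form under TGF-beta.

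Library totals lay between 22168953 and 29421447 counts. Values below are CPM, counts scaled to the library total as corrected by its TMM factor, and 3 counts, the level treated as the floor, were at most 0.137 CPM in any library. Genes of stellate cells or fibroblasts were present in all libraries. Col1a1, a fibrillar collagen, lay between 422 and 10500 CPM and Pdgfrb between 103 and 656 CPM, while Des, encoding desmin, had only 15 to 94 counts. These genes do not tell stellate cells from other fibroblasts. Of markers of other cells that make acute phase proteins, the leukocyte gene Ptprc had at most 1 count, the macrophage gene Adgre1 had 0, and Alb of hepatocytes at most 5. The summed level of all 9 leukocyte markers was 2.11 to 3.8 CPM in 16 libraries and 13.5 CPM in CM+neratinib PSC4 number 1, led there by Cd68, a lysosomal gene abundant in macrophages, at 12.3 CPM. On the third principal component the 3 libraries labelled PSC4 number 1 lay between 1.8 and 37.0, with the 8 PSC5 libraries (-3.6 to 36.2) and away from the 6 other PSC4 libraries (-56.8 to -19.7). Their label is kept, and results that rest on them are given with and without them.

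Saa3 (ENSMUSG00000040026, chromosome 7, 46711998 to 46715700, minus strand; all gene positions are GENCODE M21 on GRCm38) was the most abundant of the 7 genes. In control its level was 17.0, 76.0 and 140 CPM in PSC4 numbers 1, 2 and 3, and 11.3 and 17.3 CPM in PSC5 numbers 1 and 2. With TGF-beta it was 0.826 and 0.433 CPM in PSC4 numbers 2 and 3, and 0.043 and 0.203 CPM in PSC5 numbers 1 and 2, which were 1 to 22 counts per library. The control and TGF-beta ranges did not overlap. In CM the level was 2590 and 3190 CPM in PSC4 numbers 1 and 2, and 4890 and 1110 CPM in PSC5 numbers 1 and 2. With neratinib the same 4 cultures had 2170, 4570, 7070 and 1180 CPM. Every library in conditioned medium, with or without the inhibitor, was above every control library. The means were 52.3 ± 55.7 CPM (SD, n = 5) in control, 0.376 ± 0.34 (SD, n = 4) with TGF-beta, 2950 ± 1560 (SD, n = 4) in CM and 3750 ± 2630 (SD, n = 4) with neratinib. As ratios of means Saa3 was 56.3-fold higher in CM than in control, 139-fold lower with TGF-beta, and 7820-fold apart between CM and TGF-beta. These ratios describe the values that selected the gene and carry no test, as do the CM, TGF-beta and control levels of the other 6.

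Hp (ENSMUSG00000031722, chromosome 8, 109575128 to 109579172, minus strand) encodes haptoglobin, the plasma protein that captures free haemoglobin. Its control level was 7.99, 32.4 and 60.1 CPM in PSC4 numbers 1, 2 and 3, and 4.63 and 9.15 CPM in PSC5 numbers 1 and 2. With TGF-beta it was 1.95 and 1.59 CPM in PSC4 numbers 2 and 3 (52 and 44 counts). In PSC5 numbers 1 and 2 it was 0.129 and 0.0813 CPM, which were 3 and 2 counts and so at the floor. All 4 TGF-beta values lay below the lowest control value. In CM the level was 350, 908, 843 and 206 CPM in PSC4 numbers 1 and 2 and PSC5 numbers 1 and 2, and with neratinib 149, 759, 813 and 163 CPM in the same order. The CM mean of 577 ± 351 CPM (SD, n = 4) was 25.2-fold the control mean of 22.9 ± 23.6 (SD, n = 5), and the TGF-beta mean of 0.938 ± 0.973 (SD, n = 4) was 24.4-fold below it.

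Lcn2 (ENSMUSG00000026822, chromosome 2, 32384633 to 32388252, minus strand) encodes lipocalin 2, a secreted carrier of iron-binding siderophores. In control it was low, at 1.23, 4.65 and 5.21 CPM in PSC4 numbers 1, 2 and 3, and 0.934 and 2.55 CPM in PSC5 numbers 1 and 2. The TGF-beta libraries held 0, 1, 3 and 1 counts in PSC4 numbers 2 and 3 and PSC5 numbers 1 and 2, so Lcn2 was at the floor there and at least 22.6-fold lower than in control. In CM it was 44.6, 57.2, 101 and 27 CPM in PSC4 numbers 1 and 2 and PSC5 numbers 1 and 2. The CM mean of 57.4 ± 31.5 CPM (SD, n = 4) was 19.7-fold the control mean of 2.92 ± 1.95 (SD, n = 5), and the ranges did not overlap.

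Steap4 (ENSMUSG00000012428, chromosome 5, 7960457 to 7982213, plus strand) encodes a membrane metalloreductase that reduces iron and copper, and is the only one of the 7 whose product is not secreted. Its control level was 3.18, 20.2 and 20.7 CPM in PSC4 numbers 1, 2 and 3, and 2.62 and 2.23 CPM in PSC5 numbers 1 and 2. With TGF-beta it was 5.11 and 5.27 CPM in PSC4 numbers 2 and 3, and 0.344 and 0 CPM in PSC5 numbers 1 and 2. These overlapped the control range, although each TGF-beta library was below the control library of its own line and number. In CM the level was 42.8, 121, 57.3 and 25.5 CPM in PSC4 numbers 1 and 2 and PSC5 numbers 1 and 2, all above control. The mean of 61.7 ± 41.7 CPM (SD, n = 4) in CM was 6.31-fold that in control (9.77 ± 9.73, SD, n = 5), the smallest ratio among the 4 abundant genes.

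The remaining 3 genes were close to the limit of detection. Saa1 (ENSMUSG00000074115, chromosome 7, 46740497 to 46742980, minus strand) and Saa2 (ENSMUSG00000057465, chromosome 7, 46751790 to 46754313, plus strand) encode the serum amyloids A secreted by liver, and with Saa3 they lie within 42316 bases. Of the 31-base words in the annotated transcripts of Saa1, 46.0% also occur in Saa2 and 1.12% in Saa3, so reads of Saa1 and Saa2 can be shared out between them and their sum is the safer value. The sum was 18, 54, 43 and 16 counts in the CM libraries of PSC4 numbers 1 and 2 and PSC5 numbers 1 and 2, at most 4 counts in control and 0 with TGF-beta. For every 10000 counts of Saa3, the libraries in conditioned medium held between 1.55 and 6.22 counts of Saa1 and Saa2 together. Orm1 (ENSMUSG00000039196, chromosome 4, 63344560 to 63348163, plus strand), encoding the plasma carrier alpha-1-acid glycoprotein, had at most 4 counts in any library and did not pass the filter. Summed with its copies Orm2 and Orm3 it had at most 10. A fall of Saa1, Saa2 or Orm1 with TGF-beta was not detectable at this depth, because their control libraries were themselves at 0 to 4 counts.

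**Figure D1:**
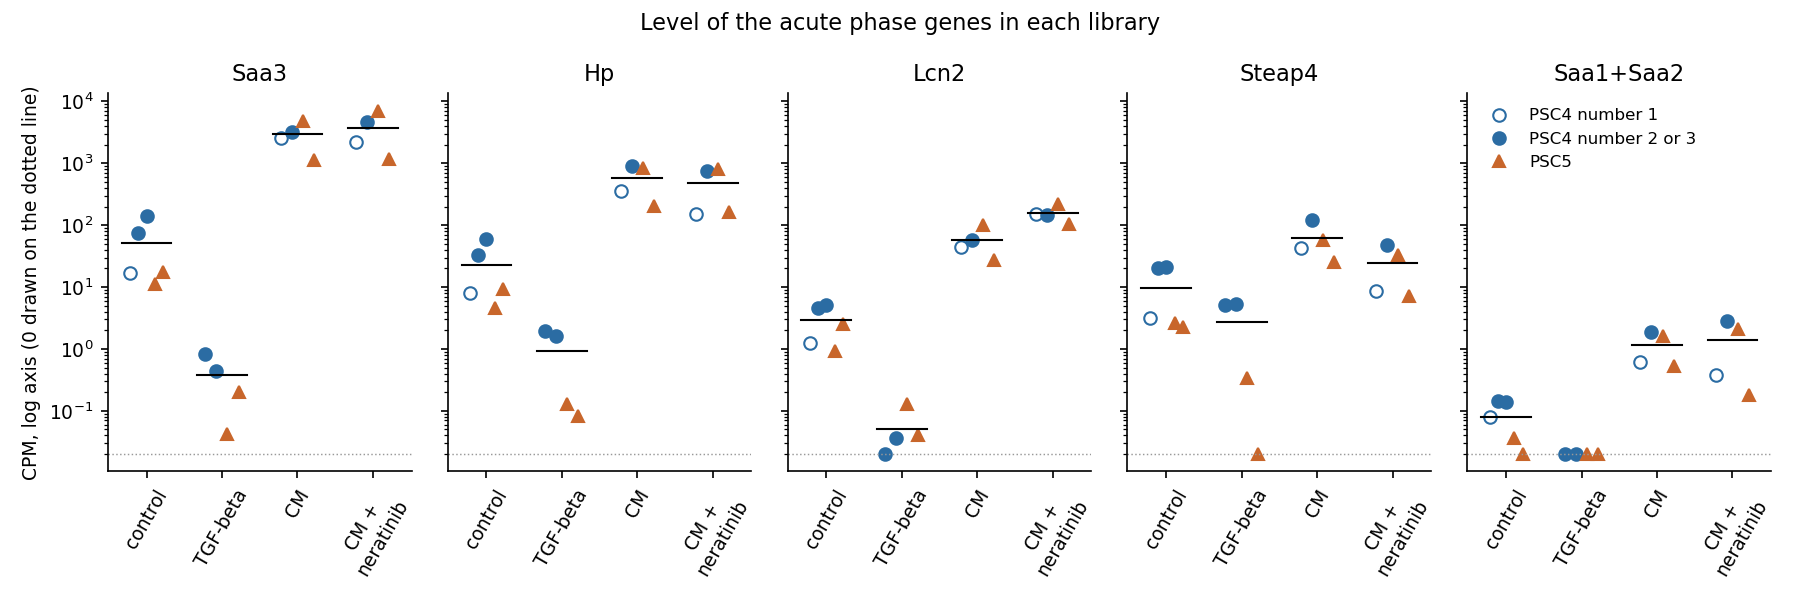
Level of Saa3, Hp, Lcn2, Steap4 and the sum of Saa1 and Saa2 in each of the 17 libraries, as CPM on a log axis, by group. Symbols mark the cell line, with PSC4 number 1 as open circles, black bars are group means, and values of 0 are drawn on the dotted line. Saa3, Hp and Lcn2 do not overlap between control, TGF-beta and CM, and the Steap4 values with TGF-beta (0 to 5.27 CPM) overlap those of control (2.23 to 20.7 CPM).

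No overlap with control in CM was thus seen for the 6 genes that passed the filter, where 7.05% of the 13923 genes tested were called higher in CM (edgeR, adjusted p under 0.05) and 7.14% lower. No overlap with control on the lower side with TGF-beta was seen for Saa3, Lcn2 and Hp only, where 19.7% of genes were called higher and 20.5% lower. Saa1 and Saa2 passed the filter only through libraries in conditioned medium, so their lack of overlap in CM carries no weight. The shares are of genes called and not of genes without overlap, so the measures are unlike. Since these contrasts also selected the genes, nothing is read from the counts. With upper-quartile scaling 37.5% of the genes called in CM were higher, against 49.7% with TMM.

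Scaled to transcript length, so that genes can be compared, the CM means were 5310 ± 2820 CPM per kb for Saa3, 429 ± 261 for Hp, 62.8 ± 34.4 for Lcn2, 19.6 ± 13.2 for Steap4 and 1.87 ± 1.12 for Saa1 and Saa2 together (SD, n = 4 each). Saa3, at 2000 CPM per kb or more in CM, did not overlap Hp (at most 675), and Hp, at 153 or more, did not overlap Lcn2 (at most 110). Lcn2 (29.5 to 110) and Steap4 (8.10 to 38.4) overlapped in CM. With neratinib the means stood in the same order, and the overlaps differed. Lcn2, at 114 to 237 CPM per kb, did not overlap Steap4 (2.29 to 15.2) but did overlap Hp (111 to 604), and Steap4 overlapped the sum of Saa1 and Saa2 (0.291 to 4.53), which it did not in CM.

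The spread between cultures of one group was wide. In control the highest Saa3 value was 12.3 times the lowest, that of Hp 13.0 times, of Steap4 9.26 times and of Lcn2 5.58 times. Ranked by level, the 5 control libraries stood in one order for Saa3, Hp and Lcn2, with PSC4 number 3 highest, then PSC4 number 2, PSC5 number 2, PSC4 number 1 and PSC5 number 1. In CM, Saa3 and Lcn2 shared the order PSC5 number 1, PSC4 number 2, PSC4 number 1, PSC5 number 2. Hp and Steap4 shared the order PSC4 number 2, PSC5 number 1, PSC4 number 1, PSC5 number 2. With neratinib no 2 of Saa3, Hp, Lcn2 and Steap4 stood in the same order, nor did any with TGF-beta, where Lcn2 was at 0 to 3 counts and Saa3, Hp and Steap4 were higher in both PSC4 libraries than in both PSC5 libraries. Over all 17 libraries Pearson's r of log2 CPM was 0.985 between Saa3 and Hp and 0.976 between Saa3 and Lcn2, but 0.741 between Lcn2 and Steap4. These correlations follow the group differences that selected the genes and describe them only.

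Promoter sequence was available in the RefSeq table for 5 of the 7 genes (GRCm38.p6), as the 250 bases before the annotated start. Motifs of the inflammatory factors named above were searched on both strands, because the genes were chosen for a shared pattern. A C/EBP-type word, TTGCNNAA, was present in all 5 windows, against 9.56% of the 32851 windows in the table. The stretches below hold that match in capitals with up to 50 bases on each side, and are shown for the 3 abundant genes that have a window and for Saa1. They read 5′ to 3′ on the strand of the gene.
Saa3, chr7:46715718-46715825, minus strand: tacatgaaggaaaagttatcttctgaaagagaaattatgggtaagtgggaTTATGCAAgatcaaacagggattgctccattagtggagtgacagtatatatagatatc
Lcn2, chr2:32387898-32387989, minus strand: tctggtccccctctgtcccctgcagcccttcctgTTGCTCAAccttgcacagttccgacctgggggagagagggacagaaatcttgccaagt
Steap4, chr5:7960335-7960442, plus strand: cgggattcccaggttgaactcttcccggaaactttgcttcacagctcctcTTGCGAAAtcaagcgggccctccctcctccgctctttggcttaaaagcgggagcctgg
Saa1, chr7:46743105-46743212, minus strand: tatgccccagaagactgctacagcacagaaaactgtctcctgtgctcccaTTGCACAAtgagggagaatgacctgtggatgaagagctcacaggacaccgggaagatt

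The match began 99 bases before the start in Saa3, where it lies on the other strand, 216 bases before it in Lcn2, 87 in Steap4 and 182 in Saa1. Saa2 holds the word TTGCACAA at 183 bases, and the 108 bases around it differ from those of Saa1 at 8 positions. In Lcn2 the match lies upstream of the RefSeq start but within the span of the gene in GENCODE. The other motifs separated Steap4 from the rest. A kappaB motif, the binding word of NF-kappaB, matched in Steap4 only (2 matches, against 3.90% of all windows), as did the STAT word TTCNNNGAA (7.02% of windows) and TATAAA (12.4% of windows). The AP-1 word TGANTCA matched in none of the 5 (6.75% of windows). A match says only that the letters are present in this window.

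The effect of ERBB inhibition on the 7 genes was compared between CM+neratinib and CM. The CM libraries had entered the selection and the neratinib libraries had not. With group and line as terms, 1 of the 6 genes tested changed, Lcn2, which was higher with neratinib. Of all genes tested 20.5% were called (10.8% higher and 9.63% lower), so the number of calls among the members did not exceed the background share. With line and number as a block, which takes up the pairing of the libraries, 2 of the 6 were called, Lcn2 and Steap4. In that fit 4563 of the 13923 genes were called. Lcn2 was 152, 145, 217 and 104 CPM with neratinib in PSC4 numbers 1 and 2 and PSC5 numbers 1 and 2, against the 44.6, 57.2, 101 and 27 CPM given above for CM. All 4 neratinib values were above all 4 CM values, and each culture was between 2.15 and 3.86 times higher than its CM counterpart. The means were 154 ± 46.5 CPM with neratinib and 57.4 ± 31.5 CPM in CM (SD, n = 4 each), a ratio of 2.69. The log2 fold change was 1.43 (SE 0.43, adjusted p = 0.0311, edgeR quasi-likelihood test).

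The call on Lcn2 was near the threshold. Its log2 fold change stayed between 1.13 and 2.00 under all 18 alternatives, and 11 of them kept the call, with adjusted p between 0.00488 and 0.092. With line and number as a block it was 1.52 (SE 0.32, adjusted p = 0.00488, edgeR). The call was lost with DESeq2 (adjusted p = 0.0623), with only the CM and neratinib libraries in the fit (0.0762, edgeR) and with the 3 PSC4 number 1 libraries removed (log2 fold change 1.33, adjusted p = 0.0704, edgeR). It was also lost without CM PSC4 number 1 (adjusted p = 0.092), CM PSC4 number 2 (0.0756), CM PSC5 number 2 (0.086) or CM+neratinib PSC5 number 1 (0.084), all with edgeR.

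The other genes did not follow Lcn2. Steap4 was lower with neratinib in all 4 cultures, at 8.51 against 42.8 CPM in PSC4 number 1, 47.8 against 121 in PSC4 number 2, 33.5 against 57.3 in PSC5 number 1 and 7.24 against 25.5 in PSC5 number 2. The groups overlapped, and the fitted log2 change, -1.21 (SE 0.76, adjusted p = 0.278, edgeR), did not pass the test. In the fit with line and number as a block it did, at -1.50 (SE 0.40, adjusted p = 0.0138, edgeR), and with the PSC4 number 1 libraries counted with PSC5 it was -1.36 (SE 0.49, adjusted p = 0.0468, edgeR). Hp was lower with neratinib in all 4 cultures too, by 1.04 to 2.36 times, and its fitted log2 change was -0.23 (SE 0.74, adjusted p = 0.856, edgeR). Saa3 was higher in 3 of 4 cultures (0.38, SE 0.71, adjusted p = 0.75, edgeR). Saa1 and Saa2 summed were higher in 2 of 4 (0.20, SE 0.76, adjusted p = 0.878, edgeR). These errors are wide, and a change as large as that of Lcn2 lies within 2 standard errors of the values of Saa3 and of the Saa1 and Saa2 sum.

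**Figure D2:**
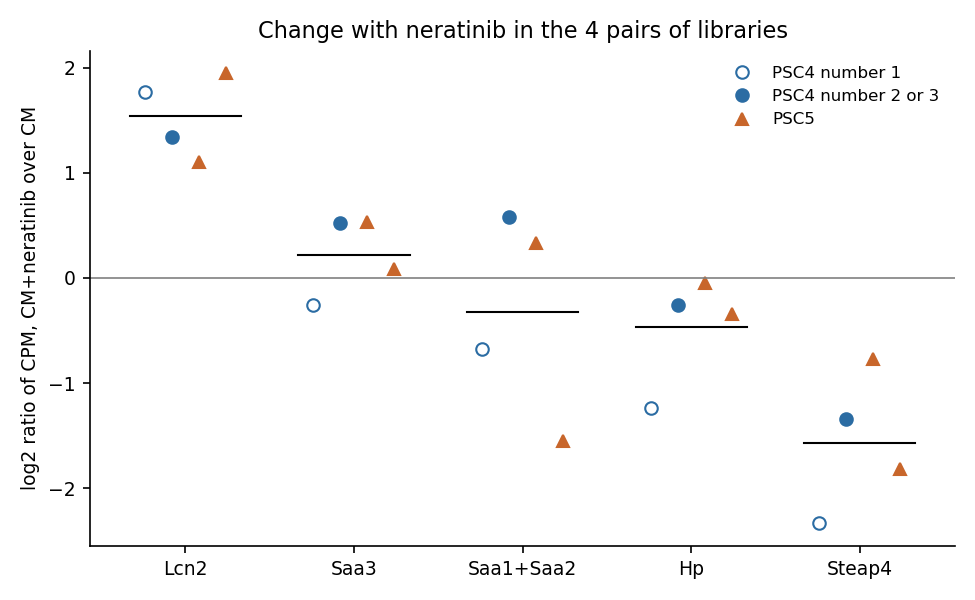
Change with neratinib in each of the 4 pairs of libraries that share cell line and number, as the log2 ratio of CPM in CM+neratinib over CM. Black bars are means over the pairs and open circles are PSC4 number 1. Lcn2 is above 0 in 4 of 4 pairs, and Hp and Steap4 are below 0 in 4 of 4.

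Ratios between 2 genes of one library remove what the genes share in a culture. They were formed after Lcn2 had been seen to stand apart, so they describe the same values in another way and carry no test. The ratio of Lcn2 to Saa3 was 0.0172 and 0.0179 in CM PSC4 numbers 1 and 2 and 0.0206 and 0.0243 in CM PSC5 numbers 1 and 2. With neratinib it was 0.0701 and 0.0317 in PSC4 and 0.0307 and 0.0885 in PSC5. All 4 neratinib ratios exceeded all 4 CM ratios, by 2.50-fold on the mean of logs (log2 difference 1.32). The ratio of Lcn2 to Hp did not overlap either, at most 0.131 in CM and at least 0.191 with neratinib, and was 4.04-fold higher (log2 difference 2.01). For Lcn2 to Steap4 the CM ratios were 1.04, 0.473, 1.76 and 1.06 in PSC4 numbers 1 and 2 and PSC5 numbers 1 and 2, and the neratinib ratios 17.9, 3.03, 6.47 and 14.4. This was the largest shift of the 4 ratios, 8.61-fold (log2 difference 3.11). For Lcn2 to the sum of Saa1 and Saa2 the groups overlapped (3.65-fold, log2 difference 1.87). Each ratio was higher in 4 of 4 pairs. Within PSC4 the log2 differences to Saa3, Hp and Steap4 were 1.42, 2.30 and 3.39, and within PSC5 1.22, 1.72 and 2.82.

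**Figure D3:**
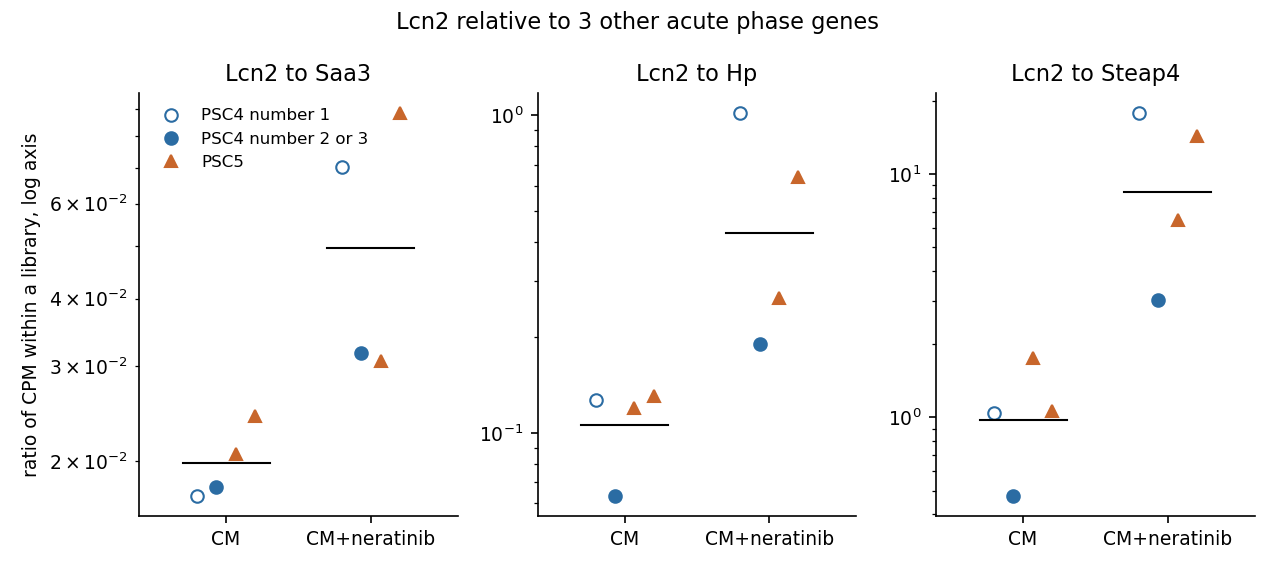
Ratio of Lcn2 to Saa3, to Hp and to Steap4 within each library in CM and in CM+neratinib, on log axes that differ between the 3 panels. Points are libraries, marked by cell line, with PSC4 number 1 as open circles, and bars are means of the logs. In each panel all 4 neratinib libraries lie above all 4 CM libraries.

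Markers of other cell types moved with some of these groups. Lcn2 is also an epithelial gene. The summed level of 10 epithelial markers was 66.5 to 216 CPM in CM and 38.9 to 347 CPM with neratinib. In control it was 74.4 to 89.5 CPM and with TGF-beta 83.3 to 142 CPM. None of the 10 was at 0 in every library. The sum followed the medium code, at 179 to 347 CPM in the 4 libraries with code T6 and 38.9 to 89.2 CPM in the 4 with T8. The Lcn2 levels of the codes overlapped, at 27 to 145 CPM with T6 and 44.6 to 217 CPM with T8. Krt8, an epithelial keratin, had 972 to 2052 counts in the T6 libraries and at most 2 in control. Epcam had 83 to 159 counts and Cdh1 277 to 559 in the T6 libraries, against at most 5 and 4 in control. Krt8 had 147 counts in CM PSC5 number 1 and 219 in CM+neratinib PSC5 number 1. The CM+neratinib PSC4 number 1 library had the lowest sum and 0 counts of Krt8, with 152 CPM of Lcn2. CM PSC4 number 1 had 12 counts of Krt8 with 44.6 CPM of Lcn2. The summed level of 8 adipocyte markers was 1.68 to 2.76 CPM in control, 0.163 to 2.45 with TGF-beta, 6.70 to 11.3 in CM and 6.18 to 13.3 with neratinib, while Adipoq and Plin1 had at most 4 counts each. The summed level of 6 endothelial markers was 3.99 to 8.22 CPM in control, 7.61 to 23.1 with TGF-beta, 2.41 to 5.04 in CM and 3.63 to 32.0 with neratinib, where the highest value was again that of PSC4 number 1, with 29.7 CPM of Vwf. Without that CM+neratinib library the log2 fold change of Lcn2 was 1.45 (SE 0.46, adjusted p = 0.048, edgeR). With all 3 PSC4 number 1 libraries removed it was 1.33 (SE 0.46, adjusted p = 0.0704, edgeR). The part of these lists in the members' levels was not tested. In bulk samples like these, fewer cells of a type and less RNA per cell cannot be told apart.

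The lines PSC4 and PSC5 were compared over all groups, a contrast the selection had not used. As labelled, 0 of the 6 genes tested differed between the lines (edgeR), where 6.97% of all genes tested were called. DESeq2 called 1 of the 6, and at an unadjusted p under 0.05 edgeR had only Steap4. The log2 difference, PSC4 over PSC5, was 1.71 for Steap4 (SE 0.59, adjusted p = 0.0806, edgeR), 0.97 for Hp (SE 0.61, adjusted p = 0.304), 0.75 for Saa3 (SE 0.61, adjusted p = 0.427) and 0.10 for Lcn2 (SE 0.36, adjusted p = 0.878). With the 3 PSC4 number 1 libraries removed, Steap4 was 2.30 higher in PSC4 (SE 0.45, adjusted p = 0.00154, edgeR) and Hp 1.65 higher (SE 0.55, adjusted p = 0.0287), and the number of genes called over the whole table went from 970 to 5980. Saa3 was 1.38 higher in that fit (SE 0.67, adjusted p = 0.118, edgeR) and Lcn2 0.29 (SE 0.42, adjusted p = 0.601). With those libraries counted as PSC5, Saa3 passed as well, at 1.58 (SE 0.56, adjusted p = 0.032, edgeR). Lcn2 did not, at 0.47 (SE 0.38, adjusted p = 0.335, edgeR). Leaving out CM, CM+neratinib or control PSC4 number 1 alone was enough to bring Steap4 past the threshold (adjusted p = 0.045, 0.0248 and 0.0456, edgeR). With upper-quartile scaling 58.0% of the genes called between the lines as labelled were higher in PSC4, against 68.7% with TMM.

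**Figure D4:**
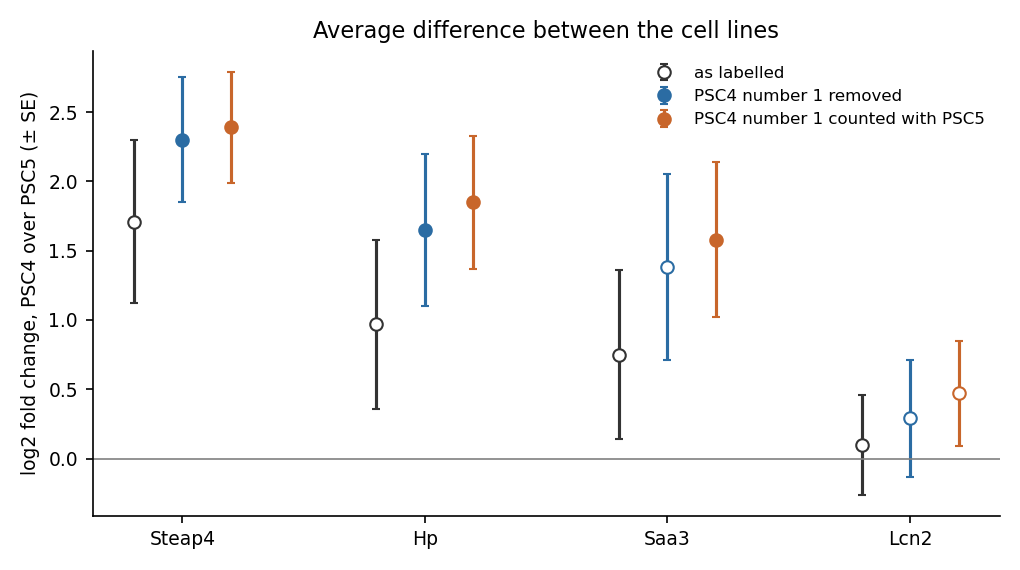
Average difference between PSC4 and PSC5 over the 4 groups, as log2 fold change with its standard error, for Steap4, Hp, Saa3 and Lcn2, with the cell line as labelled, with the 3 PSC4 number 1 libraries removed, and with them counted as PSC5. Filled points have an adjusted p under 0.05. Steap4 moves from 1.71 to 2.30 and 2.39, and Lcn2 stays at or below 0.47.

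Whether conditioned medium or neratinib acted differently on the genes in the 2 lines was tested as an interaction. None of the members was called, nor was any of the 13923 genes (0.0% in both tests, edgeR). At an unadjusted p under 0.05 there were 43 genes for CM and 237 for neratinib, none of them a member, and DESeq2 called 0 and 1. The interval of these differences is wide: for Saa3 the log2 change in CM differed by -2.49 between PSC4 and PSC5 (SE 1.30, adjusted p = 1.0, edgeR), and for Steap4 by -1.61 (SE 1.37). For neratinib the differences were 0.21 (SE 0.86) for Lcn2 and -0.52 (SE 1.35) for Steap4.

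The conditioned media carried the codes T6 (number 2 in both lines) and T8 (number 1), whose meaning is not given in the labels. In PSC5, CM with T8 gave 4890 CPM of Saa3 and CM with T6 1110 CPM, although the matching control libraries stood the other way, at 11.3 and 17.3 CPM. In PSC4 the values were 2590 and 3190 CPM, from controls of 17.0 and 76.0 CPM. With number and line as a block, the log2 fold change of T6 over T8 was -2.26 for Lcn2 (SE 0.43, adjusted p = 0.288, edgeR) and -2.27 for Saa3 (SE 0.51, adjusted p = 0.398). No gene at all was called in this comparison (0.0%, edgeR). An unadjusted p under 0.05 was given to 906 genes, Lcn2, Saa3 and Hp among them, and DESeq2 called 33. With the 3 PSC4 number 1 libraries removed, T8 was left with the CM and CM+neratinib libraries of PSC5 number 1 only. The values were then -3.27 (SE 0.35) for Saa3 and -3.04 (SE 0.32) for Hp. Calls on Saa3 and Hp in that fit rest on this culture alone and carry no weight. Without the block the values were -0.74 for Lcn2, -1.28 for Saa3 and -0.81 for Hp, and with each library left out in turn they lay between -2.76 and -1.55, -3.29 and -1.53, and -3.07 and -0.81. The codes go with number and passage, and the block can take out that difference only as the control and TGF-beta libraries show it.

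The genes most like each member over the 17 libraries were found by Pearson's r of log2 CPM. For Saa3 these were Map3k8 (0.983), a kinase of inflammatory signalling, Atf6b (0.982) and Cd14 (0.98), the co-receptor for bacterial lipopolysaccharide. For Lcn2 they were Cd14 (0.986), Traf3ip2 (0.983), an adaptor of the IL-17 receptor, and Map3k8 (0.983). Cd14 itself was 12.9 ± 1.97 CPM in control (SD, n = 5), 4.67 ± 0.454 with TGF-beta, 37.4 ± 11.8 in CM and 49.4 ± 13.7 with neratinib (SD, n = 4 each), a far smaller span than that of Lcn2. For Hp the nearest were Serpina3i (0.977), Etv1 (0.973) and Map3k8 (0.972). Steap4 had other neighbours, Cc2d2a (0.975), Map3k5 (0.961) and C1qtnf7 (0.959), and C1qtnf7 had 33.7 ± 23 CPM in CM and 11.6 ± 9.20 with neratinib (SD, n = 4 each). For the scarce Saa1 they were Mapkapk2 (0.968), Arid5a (0.95) and Gcnt2 (0.946), and for Saa2 Arid5a (0.961), Mapkapk2 (0.95) and Rnf125 (0.944). The points share the groups, so these values describe likeness of pattern across 17 libraries only.

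Other genes of the acute phase response were followed with a list of 30, of which 18 were tested. In CM 12 of the 18 rose and none fell (edgeR, adjusted p under 0.05; 7.05% of all genes rose), with a median log2 fold change of 1.61 against -0.0 over all genes tested. Complement C3 rose and reached 2410 ± 959 CPM (SD, n = 4), against 557 ± 75.7 in control (SD, n = 5). Cfb, the factor B of the alternative complement pathway, went from 18.1 ± 9.17 to 142 ± 67.1 CPM. The metallothionein Mt1 rose by 0.85 (SE 0.13, adjusted p = 0.00122, edgeR). Serpina3n, a protease inhibitor, did not pass (log2 fold change 1.55, SE 0.79, adjusted p = 0.214, edgeR). With TGF-beta 12 of the 18 fell (20.5% of all genes fell), with a median of -2.12. C3 fell to 9.26 ± 4.79 CPM (SD, n = 4; log2 fold change -5.90, SE 0.66, adjusted p = 7.59e-06, edgeR), and Lbp, which carries lipopolysaccharide to Cd14, fell by 3.21 (SE 0.59, adjusted p = 0.000582). Lrg1, an acute phase glycoprotein, had 7 to 30 counts in control, 62 to 137 in CM and 0 to 2 with TGF-beta. Saa4, the constitutive serum amyloid A, had 1 to 5 counts in control and 6 to 29 in CM. S100a8, of the same list, had 0 to 5 and 9 to 21. Both passed the filter on low counts only through libraries in conditioned medium, so their rises among the 12 carry no weight. With neratinib only Serpina3g, another protease inhibitor, changed against CM, where 9.63% of all genes fell. It fell by 1.20 (SE 0.31, adjusted p = 0.0138, edgeR). With the block 4 of the 18 rose and 3 fell with neratinib, where 2342 and 2221 of all 13923 genes did. With the 3 PSC4 number 1 libraries removed none fell, 3 fell without CM+neratinib PSC5 number 1, and 2 rose without CM PSC5 number 1. Without CM PSC5 number 1, 7 of the 18 rose in CM and the calls on C3 and Cfb were lost, that on Cfb also without control PSC5 number 2. The call on Saa4 in CM was lost in 7 of the 9 fits that left out one library of these groups.

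Genes that induce acute phase proteins, a list of 27 with 24 tested, held both cytokines and the receptors and factors that carry their signals. In CM 14 of the 24 rose and none fell (7.05% and 7.14% of all genes), with a median log2 fold change of 0.59. Il6, the main cytokine of the response, rose to 10.6 ± 6.30 CPM (SD, n = 4) against 1.75 ± 0.635 in control (SD, n = 5; log2 fold change 2.64, SE 0.42, adjusted p = 0.00124, edgeR). Nfkbiz, a nuclear partner of NF-kappaB that acts on Lcn2, rose by 1.25 (SE 0.18, adjusted p = 0.00063, edgeR). Il1a had 0 counts in every control and TGF-beta library and 1 to 28 in CM, and Il1b had at most 1 count anywhere. Il1a thus passed the filter only through libraries in conditioned medium, so its rise among the 14 carries no weight. The receptor chains Il6st, Osmr and Lifr, the most abundant of the list, did not pass in CM, with log2 fold changes of 0.22, 0.60 and 0.61 (adjusted p = 0.372, 0.0759 and 0.157, edgeR). With TGF-beta 13 of the 24 fell (20.5% of all genes), and 1, Il11, rose, by 2.03 (SE 0.37, adjusted p = 0.000537, edgeR). Lifr fell by 2.50 (SE 0.30, adjusted p = 1.62e-05, edgeR), Osmr fell by 1.28 (SE 0.22, adjusted p = 0.000335) and Il6st fell by 0.70 (SE 0.15, adjusted p = 0.00207).

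With neratinib Il6 moved in the same direction as Lcn2. It was 37.8 ± 15.1 CPM against 10.6 ± 6.30 in CM (SD, n = 4 each; log2 fold change 1.82, SE 0.41, adjusted p = 0.00717, edgeR). Of the 24 inducers it was the only one to rise, where 10.8% of all genes rose. Il6ra, its receptor, fell by 0.41 (SE 0.12, adjusted p = 0.0268, edgeR) and Tnfaip3, an inhibitor of NF-kappaB signalling, by 0.60 (SE 0.16, adjusted p = 0.0189). Of all genes 9.63% fell, so neither the rise nor the falls exceeded the share of all genes. Both falls were lost without CM PSC4 number 1 or without CM+neratinib PSC5 number 2, where 0 of the list fell, and 1 fell without CM PSC5 number 2 or CM+neratinib PSC4 number 2. Without CM+neratinib PSC5 number 1, 5 fell, where 1810 of all 14121 genes fell. With the block 4 fell, where 2221 of all 13923 genes fell. With only the CM and neratinib libraries in the fit, neither Il6 nor any other of the 24 was called. In CM 9 of the list rose without CM PSC5 number 1.

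Iron and haem handling, on which Lcn2, Hp and Steap4 act, was followed with 18 genes, of which 16 were tested. In CM 5 rose and 1 fell (7.05% and 7.14% of all genes), with a median log2 fold change of 0.25. Slc39a14, a metal importer of the acute phase response, rose by 1.65 (SE 0.19, adjusted p = 0.0001, edgeR), the iron transporter Slc11a2 by 0.85 (SE 0.11, adjusted p = 0.000391) and the Steap4 relative Steap1 by 0.71 (SE 0.15, adjusted p = 0.0064). With TGF-beta 5 rose and 7 fell (19.7% and 20.5% of all genes): the ferritin heavy chain Fth1 fell by 1.18 (SE 0.14, adjusted p = 9.41e-06, edgeR), Lrp1, a scavenger receptor that takes up haem with its carrier, rose by 1.30 (SE 0.13, adjusted p = 3.09e-06), and the iron exporter Slc40a1 by 1.55 (SE 0.25, adjusted p = 0.000168). The falls numbered 3 without TGF-beta PSC4 number 2, TGF-beta PSC4 number 3 or control PSC5 number 1, and 4 without control PSC4 number 2, control PSC4 number 3 or control PSC5 number 2. In CM the rises numbered 3 without CM PSC4 number 2, CM PSC5 number 1 or control PSC4 number 2, and the fall was lost without CM PSC4 number 1, CM PSC5 number 1 or control PSC5 number 1.

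With neratinib 6 of the 16 rose and 1 fell against CM, where 10.8% of all genes rose and 9.63% fell. Hmox1, which breaks down haem, was 827 ± 536 CPM against 169 ± 27.6 in CM (SD, n = 4 each; log2 fold change 2.26, SE 0.30, adjusted p = 0.000319, edgeR), and its 4 neratinib values, from 335 CPM up, lay above the CM values of 151 to 210 CPM. Blvrb, of the same list, rose by 0.74 (SE 0.18, adjusted p = 0.00981, edgeR), the ferritin light chain Ftl1 by 0.55 (SE 0.13, adjusted p = 0.00981) and Fth1 by 0.48 (SE 0.14, adjusted p = 0.0248). Steap1 rose with neratinib, from 43.8 ± 6.92 to 62.1 ± 7.09 CPM (SD, n = 4 each), whereas Steap4 was lower in every pair. The exporter Slc40a1 fell by 1.08 (SE 0.27, adjusted p = 0.0122, edgeR). With the 3 PSC4 number 1 libraries removed 2 of the list rose, without CM PSC4 number 1 alone 3, and with only the CM and neratinib libraries in the fit 1. The rises of Steap1 and Fth1 were lost in 4 and 3 of the 8 fits that left out one library. Without CM+neratinib PSC5 number 1, 2 fell.

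Receptors for these proteins were few. Of 11 listed 7 were tested. With TGF-beta 1 of the 7 rose and 1 fell (19.7% and 20.5% of all genes), and with neratinib also 1 and 1 (10.8% and 9.63%), shares near or below those of all genes. In CM 2 rose (7.05% of all genes), Tlr2 by 1.56 (SE 0.32, adjusted p = 0.00622, edgeR) and Scarb1 by 0.77 (SE 0.15, adjusted p = 0.0047), both able to bind serum amyloid A. With TGF-beta Tlr4 fell by 1.41 (SE 0.16, adjusted p = 7.74e-06, edgeR), and Lrp2, which takes up lipocalin 2, rose by 0.66 (SE 0.25, adjusted p = 0.0482). The rise of Lrp2 was lost with the block and in 7 of the 9 fits that left out one control or TGF-beta library. Slc22a17, a receptor described for lipocalin 2, fell with neratinib from 3.73 ± 1.54 to 1.22 ± 0.685 CPM (SD, n = 4 each; log2 fold change -1.58, SE 0.40, adjusted p = 0.0139, edgeR), while Tlr4 rose by 0.47 (SE 0.16, adjusted p = 0.0476), a call lost in 6 of the 8 fits that left out one library of these groups. P2rx7, the third most abundant of the list, did not pass in any of the 3 comparisons.

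**Figure D5:**
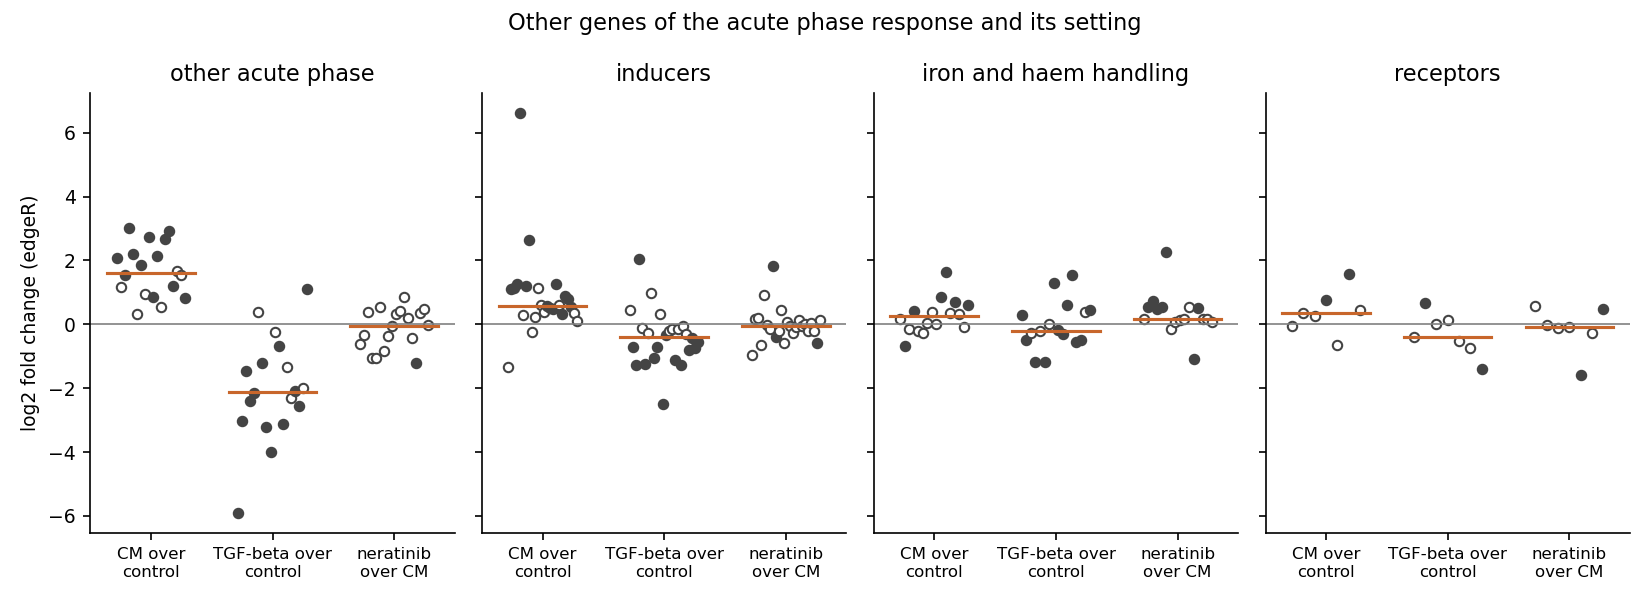
Log2 fold change of every tested gene of the 4 lists (other acute phase genes, 18; inducers, 24; iron and haem handling, 16; receptors, 7) in CM against control, TGF-beta against control and CM+neratinib against CM. Points are genes, filled where the adjusted p is under 0.05, and orange bars are medians. The medians of other acute phase genes are 1.61, -2.12 and -0.04 in the 3 comparisons.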

How the data were processed

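RNA sequencing of 17 libraries was deposited as 1 table per library with estimated counts for 35896 Ensembl gene IDs. The authors' processing is known only from the submitters' processing notes, which name Salmon 1.4.0, DESeq 2 and the builds GRCm38 and mm10, with no role given. As deposited, 74.8% of values above 0 are not whole, so the expected counts were rounded to whole numbers. Symbols from GENCODE M21 matched 35437 IDs and 459 had none.

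Genes were tested with edgeR 4.0.16 in R 4.3.3 (quasi-likelihood, TMM factors, filterByExpr by group with a minimum count of 10 and total of 15) on 13923 genes and all 17 libraries, with group and line as terms, and p-values were adjusted by Benjamini-Hochberg over all genes (threshold 0.05). T6 against T8 had line and number as a block. DESeq2 1.42.0, other scalings and filters, the block, and fits without single libraries were alternatives. The edgeR script was tested on simulated data. Log2 CPM for correlations used a prior count of 2. Levels per kb divide by the length of the principal transcript. Folds at the floor use 3 counts. The depth of 22168953 to 29421447 counts per library sets counting error only.

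The members and lists were chosen with earlier results of these data known. Genes of the lists were named by a fixed rule, the 3 with the highest mean level and the 3 called genes with the largest change in each list and comparison. Cd14, Il1b and S100a8 were named outside it, after their values were seen. One result of the list of other acute phase genes is not reported here. Lcn2 was singled out, and its ratios added, after the values were seen. Replicate numbers mark passages per the labels, and pair the libraries: deviations of libraries of the same line and number correlated above 0.1 in 22 of 22 pairs (median 0.299), against a median of -0.076 for other numbers. A chi-square comparison of counts found no pair of libraries alike within sampling noise.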

Additional observations from a re-analysis of the deposited data

Results flagged for a closer look

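The Lcn2 to Hp ratio in CM was 0.0631 in PSC4 number 2 and 0.120 to 0.131 in the other 3 libraries, a gap of 0.838 of the group's range, just over the critical value of 0.829 for 4 samples. Orm1 with TGF-beta had 1 count in 1 library and 0 in the others, so the gap was 1.0 of the range. In all, 37 groups of libraries were examined, and chance sets a sample apart in about 1 group in 20.

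With neratinib the CPM of Orm1 was higher in both PSC4 pairs. The counts were 0 in CM and 1 with neratinib in number 1, and 3 in both media in number 2. In PSC5 the CPM of Orm1 was lower in number 1, and number 2 had 0 counts in both media. Orm1, Orm2 and Orm3 summed were lower in both PSC4 pairs and higher in both PSC5 pairs. Over all pairs together the summed level with neratinib was 1.118 times that in CM for Orm1, and 1.467 times for the 3 genes. Both results rest on at most 10 counts per library, and the difference between the lines was not tested.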

How the results depend on the processing

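Mean levels of all members moved by less than 1 SD with CPM on raw totals (28 of 28). Genes called with neratinib against CM numbered 2850, and 4563 with the replicate block, 602 with only the 2 groups compared, and 1748 to 3685 without one library. In CM against control 1976 became 3240 with the block, 2986 with the PSC4 number 1 libraries counted with PSC5, and 801 to 1793 without one library. Between the lines 970 became 2208 with DESeq2, 5980 with those libraries removed, 6046 with them counted with PSC5, and 0 to 3058 without one library. Calls for T6 against T8 were 0, but 33 with DESeq2, 126 with no replicate block, 5 with the libraries removed and 0 to 2 without one library, and counting with PSC5 leaves that block unchanged and gives no value. The CM interaction gave 0 to 1 calls without one library, and that of neratinib 1 with DESeq2 and 0 to 1 without one library.

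Members called with neratinib numbered 1, and 0 with DESeq2, with only the 2 groups and with the PSC4 number 1 libraries removed, 2 with the block and with those libraries counted with PSC5, and 0 to 1 without one library. Between the lines the number was 0, and 1 with DESeq2, 2 with the libraries removed, 3 with them counted with PSC5, and 0 to 1 without one library. For T6 against T8 it was 2 with the libraries removed. With the block Saa1 and Saa2 turned from 0.23 and 0.19 to -0.04 each. Without one library, neratinib against CM ranged over -0.42 to 0.60 for Saa1, -0.51 to 0.75 for Saa2, -0.70 to 1.23 for Saa3, -1.20 to 0.54 for Hp and -2.17 to -0.72 for Steap4, and PSC4 against PSC5 over -0.09 to 0.50 for Lcn2. The block changed no other call of a member.

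The log2 differences of Lcn2 to Saa3, Hp, Steap4 and Saa1 with Saa2 were 1.09, 1.68, 2.78 and 1.68 with the PSC4 number 1 libraries removed, and 1.04 to 1.55, 1.59 to 2.40, 2.75 to 3.60 and 1.33 to 2.49 without one library, within 1 SD of the libraries in each case. The cause of these shifts was not tested. Depth limits Saa1, Saa2 and Orm1.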
